A study of Mus musculus with 12 samples.

Results

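The 4 myosin light chain genes of heart muscle, Myl2, Myl3, Myl4 and Myl7, were followed across left ventricular samples of mice given verapamil or its vehicle. They were taken as every probe set, the group of short probes for 1 transcript, that the array's annotation assigned to 1 of these symbols and to no other. This gave 7 probe sets, 1 for Myl2, 3 for Myl3, 2 for Myl4 and 1 for Myl7, or 4 of the 18193 genes named alone by a probe set. All 7 passed the filter on dim signals described below.

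RNA came from left ventricular free wall of outbred ICR mice that were 12 to 14 weeks old. Verapamil is a blocker of the L-type channel through which calcium enters heart muscle cells, and an osmotic pump under the skin released it over 24 h (3.6 mg/kg/day). Control mice carried the same kind of pump filled with 0.02% ascorbic acid, the vehicle, so pump surgery and anaesthesia were common to all mice. Whole-genome arrays were run on 3 females with vehicle, 3 females with verapamil, 3 males with vehicle and 3 males with verapamil. An outbred stock carries genetic differences between animals of 1 group, which enter the spread between arrays.

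Myosin, the motor of the thick filament, is built from heavy chains that each carry 1 essential and 1 regulatory light chain on the lever arm. The essential chain stiffens the lever, and phosphorylation of the regulatory chain tunes the force of contraction. Myl2 is the regulatory and Myl3 the essential chain of the ventricle, and Myl7 is the regulatory and Myl4 the essential chain of the atrium. The ventricular pair is therefore used as a marker of ventricular muscle, and the atrial pair, which is also active in the embryonic ventricle, as a marker of atrial muscle.

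Tests covered the 22518 brighter probe sets of the table (11502 named genes), and levels are given as the deposited linear signal or as log2(signal + 7). Median signals ranged from 81.7 to 109.7, and arrays correlated with each other at 0.93 to 0.98. The ratio of 3' to 5' actin probe sets, which rises as RNA degrades, was highest on male vehicle array 1 (2.24), female vehicle array 1 (2.08) and female verapamil array 1 (1.77). It lay at 1.63 or below on the other 9. Female verapamil array 3, female vehicle array 3 and male vehicle array 1 stood apart from the rest in Myl4 and Myl7. The verapamil differences of Myl4 and Myl7 within each sex are given with and without these arrays. In tissue RNA, fewer cells of a type and less RNA per cell cannot be told apart.

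The DNA around transcript starts of the 4 genes is shown as a description. A link between its motifs and the levels on the arrays was not tested. The windows are RefSeq's (GRCm38.p6), from 250 bases before to 50 bases after an annotated transcript start. For Myl2, Myl3 and Myl7 this start is the end of the gene record, while for Myl4 it is an internal one that lies downstream of the gene's first base at 104546017, and the DNA before that base was not searched. They lie at chr5:122092474-122092773 on the plus strand for Myl2, chr9:110763428-110763727 on the plus strand for Myl3, chr11:104550413-104550712 on the plus strand for Myl4 and chr11:5898733-5899032 on the minus strand for Myl7. Capitals mark matches, on either strand, to the CArG box (bound by serum response factor), to the MEF2 motif, or to the GATA motif, searched as AGATAA with a first letter of A or T and a last letter of A or G.
Myl2: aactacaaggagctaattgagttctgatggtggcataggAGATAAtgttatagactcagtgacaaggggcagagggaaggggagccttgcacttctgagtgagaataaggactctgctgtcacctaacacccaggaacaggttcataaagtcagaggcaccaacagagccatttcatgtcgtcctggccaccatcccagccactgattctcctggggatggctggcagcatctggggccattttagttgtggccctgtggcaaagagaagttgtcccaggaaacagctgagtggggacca
Myl3: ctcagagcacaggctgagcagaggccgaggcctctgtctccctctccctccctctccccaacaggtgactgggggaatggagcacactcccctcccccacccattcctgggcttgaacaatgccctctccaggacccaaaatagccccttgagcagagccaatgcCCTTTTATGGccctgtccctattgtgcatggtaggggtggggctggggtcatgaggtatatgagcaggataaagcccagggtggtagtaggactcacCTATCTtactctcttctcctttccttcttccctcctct
Myl4: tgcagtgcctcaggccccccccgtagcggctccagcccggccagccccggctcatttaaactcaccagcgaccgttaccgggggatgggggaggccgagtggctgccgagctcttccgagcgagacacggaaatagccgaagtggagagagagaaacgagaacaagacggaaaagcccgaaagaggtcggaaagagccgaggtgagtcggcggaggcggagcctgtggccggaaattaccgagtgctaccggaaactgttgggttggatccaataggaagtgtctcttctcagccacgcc
Myl7: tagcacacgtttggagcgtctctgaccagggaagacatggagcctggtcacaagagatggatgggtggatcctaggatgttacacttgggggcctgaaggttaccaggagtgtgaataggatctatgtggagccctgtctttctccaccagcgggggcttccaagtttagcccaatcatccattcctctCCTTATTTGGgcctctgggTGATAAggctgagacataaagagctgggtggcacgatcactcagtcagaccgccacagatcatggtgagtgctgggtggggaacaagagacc
In the Myl7 window a CArG box lay 61 to 52 bases and a GATA match 42 to 37 bases before the start. In the Myl3 window a CArG box lay 85 to 76 bases before the start, and a GATA match began at base 13 after it. The Myl2 window held a GATA match 211 to 206 bases before the start and no CArG box, and a second RefSeq window of Myl2 held neither. The Myl4 window, at the internal start, held no match to these motifs, nor to the E-box CANNTG. Among 32851 RefSeq windows of 300 bases, 1.63% held a CArG box, 3.19% a MEF2 motif, 29.8% a GATA match and 72.3% an E-box, so the GATA and E-box matches were common ones. No MEF2 motif was found in any of the windows searched. A match describes letters only, and a window without one says nothing of the factor. Which transcript start heart muscle uses was not examined. Another start of Myl2 or of the other genes may therefore have motifs that these windows lack.

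Myl2, the ventricular regulatory chain (Entrez gene 17906, at chromosome 5, 122092724 to 122113473, GRCm38.p6), was among the brightest probe sets on every array, ranking between 3 and 11. Its signal was 39091, 42525 and 37039.7 in female vehicle mice and 41013, 36503 and 45782 in female verapamil mice. It was 42874, 39697 and 44053 in male vehicle mice and 37219.5, 30887 and 32356 in male verapamil mice. The female groups overlapped, while the 3 male verapamil arrays lay below the 3 male vehicle arrays. Group means on the log2 scale were 15.27 ± 0.10, 15.32 ± 0.16, 15.36 ± 0.08 and 15.03 ± 0.14 in the same order of groups (SD, n = 3 each).

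Myl3, the ventricular essential chain (Entrez gene 17897, at chromosome 9, 110763678 to 110769802, GRCm38.p6), ranked between 2 and 6 on the arrays by its brightest probe set. Its signal was 42494, 44564 and 38315 in female vehicle mice and 44446, 37589 and 48023 in female verapamil mice. It was 45682, 42500.4 and 42646 in male vehicle mice and 38687, 33173 and 34282 in male verapamil mice. As for Myl2, the male groups did not overlap and the female groups did. The other Myl3 probe sets ranked between 16 and 69 and between 32 and 57. They followed the brightest one across the 12 arrays with r of 0.84 and 0.86.

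From the lowest to the highest of the 12 arrays Myl2 differed 1.48-fold and Myl3 1.45-fold. Their SD within groups was 0.125 log2 units each, against a median of 0.316 over the tested probe sets, where they stood at positions 21902 and 21908 of 22518 from the most variable. Other genes of like brightness were about as steady: over the 100 brightest probe sets the median SD was 0.153 and the median fold 1.52 (quartiles 1.44 and 1.60), and Myl2 and Myl3 stood at positions 21 and 19 from the steadiest. The log2 level of Myl2 minus that of Myl3 kept within -0.12 to 0.05 over the arrays. Across the 12 arrays the pair correlated at r = 0.966 and rho = 0.958, and r was 0.913 without the 2 arrays farthest from the median of Myl2. These values carry no test, since bright probe sets varied together from array to array and 41 genes had r above 0.9 with Myl2. With the median of the 100 brightest probe sets of each array subtracted, the pair had r = 0.62 and rho = 0.58.

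Myl4, the atrial essential chain (Entrez gene 17896, at chromosome 11, 104546017 to 104587215, GRCm38.p6), had signals on its brighter probe set of 264, 248 and 2868 in female vehicle mice and 699.8, 248 and 10899 in female verapamil mice. In male vehicle mice they were 2679.9, 156 and 315, and in male verapamil mice 287, 226 and 297. Female verapamil array 3, female vehicle array 3 and male vehicle array 1 lay far above the other 9, the highest of which was female verapamil array 1. The second Myl4 probe set stayed between 117 and 244 on all 12 arrays and correlated at 0.28 with the first, so the probe sets of this gene disagreed.

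Myl7, the atrial regulatory chain (Entrez gene 17898, at chromosome 11, 5896637 to 5898782, GRCm38.p6), had signals of 261, 355 and 2849.7 in female vehicle mice and 634, 357 and 12450.5 in female verapamil mice. In male vehicle mice they were 2798, 480.3 and 292, and in male verapamil mice 468, 410.1 and 287. The order of the 4 highest arrays was the same as for Myl4. On the log2 scale the group means were 9.19 ± 1.99, 10.29 ± 2.80, 9.03 ± 2.11 and 8.10 ± 0.21 for Myl4, and 9.35 ± 1.86, 10.48 ± 2.74, 9.54 ± 1.70 and 8.60 ± 0.36 for Myl7 (SD, n = 3 each; female vehicle, female verapamil, male vehicle, male verapamil). The SD lay between 1.70 and 2.80 in the 3 groups that hold a high array and was 0.21 and 0.36 in male verapamil mice, where no array was high.

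**Figure D1:**
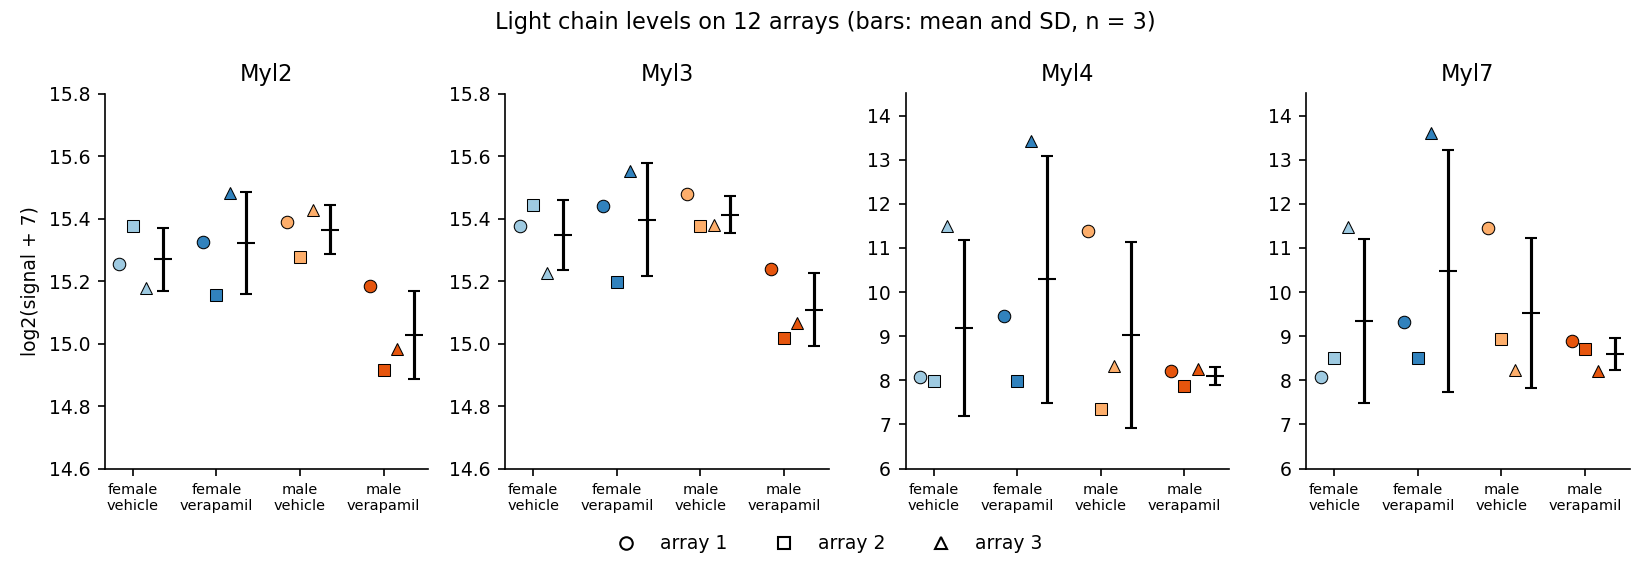
Level of each light chain, log2(signal + 7), on each of 12 arrays by group, with the brightest probe set of each gene, the marker shape giving the array number and the bar the mean and SD of 3 arrays. The axes of Myl2 and Myl3 span a narrow range and those of Myl4 and Myl7 a wide one. The male verapamil arrays lie lowest as a group for Myl2 and Myl3, and 1 array in each of the other 3 groups lies far above its group for Myl4 and Myl7.

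From the lowest to the highest array Myl4 differed 69.7-fold and Myl7 47.7-fold. Their SD within groups, 2.02 and 1.87 log2 units, stood at positions 6 and 10 of the 22518 tested probe sets. Over the 9 arrays outside the 3 highest a correlation of the pair was not established: r was 0.345 (exact permutation p = 0.373, adjusted over 6 pairs 0.758), rho was -0.133 (exact permutation p = 0.744, adjusted 0.892), and r was -0.368 without the 2 arrays farthest from the median. The 3 arrays set aside were chosen by Myl4, Myl7 and Sln themselves, which narrows the range of the pair beforehand. The groups were also pooled in the permutation, so this test cannot decide whether the pair is related. The likeness of the pair over 12 arrays was seen with the 3 high ones included, and a pooled r was not tested. Over the same 9 arrays the 4 pairs of a ventricular with an atrial chain had r between 0.07 and 0.26 (adjusted p between 0.758 and 0.855, exact permutation tests).

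The 3 high arrays were described by 1 more gene of atrial muscle, Sln, which encodes sarcolipin, a small inhibitor of the calcium pump of the sarcoplasmic reticulum. Sln was too dim on average to be tested. Its signal was 7004 on female verapamil array 3, 1693 on female vehicle array 3 and 1480.1 on male vehicle array 1. Next came 207 on female verapamil array 1, and the other 8 arrays lay between 2.09 and 113. To set the arrays on 1 scale, the signal above that of the lowest array was taken as a percentage of its value on female verapamil array 3. Female vehicle array 3 then stood at 25.2% by Myl4, 21.2% by Myl7 and 24.1% by Sln. Male vehicle array 1 stood at 23.5% by Myl4, 20.8% by Myl7 and 21.1% by Sln. Female verapamil array 1 stood at 5.06%, 3.06% and 2.93%, and the other 8 arrays between 0 and 1.80%. The 3 genes thus gave like proportions for female vehicle array 3 and male vehicle array 1, and less so for female verapamil array 1. Sln was chosen for this description after its values were seen, as the gene of the atrial list with the same 3 highest arrays, and another gene of the list broke the order: by Mybphl male vehicle array 3 stood at 20.8%, male vehicle array 1 at 20.2%, male verapamil array 1 at 15.3% and female verapamil array 1 at 0. These percentages compare arrays with each other and are not shares of tissue, since no pure atrial sample was analysed here.

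**Figure D2:**
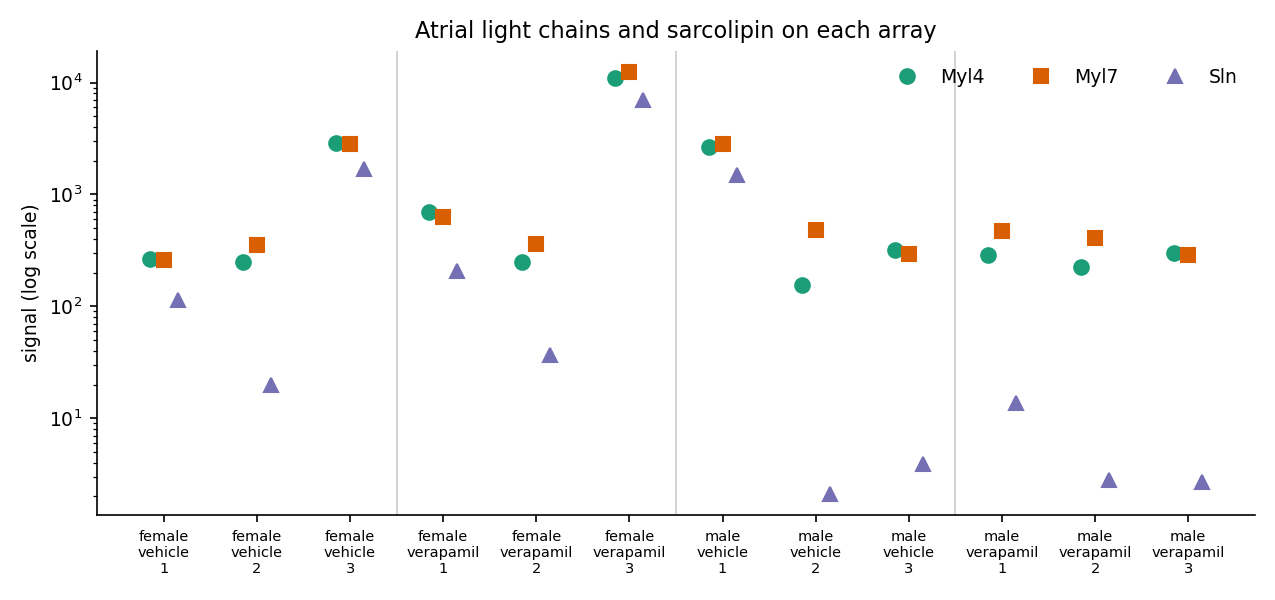
Signal of Myl4, Myl7 and Sln on each of the 12 arrays, on a log axis, with lines between the groups. All 3 genes are highest on female verapamil array 3, followed by female vehicle array 3 and male vehicle array 1, and female verapamil array 1 is the fourth.

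A broader list of atrial muscle genes set these arrays apart from all of the others only when Sln was counted. Of 20 genes listed besides Myl4 and Myl7, 15 had a probe set of their own and 11 were tested. The mean log2 deviation of the 11 from their own means was 0.06 on female verapamil array 3, 0.12 on female vehicle array 3 and 0.28 on male vehicle array 1, and between -0.48 and 0.12 on the other 9. With the 4 dim genes added, Sln among them, it was 0.64, 0.52 and 0.45 on the 3 arrays and at most 0.10 on the others. With Sln, which helped to define the 3 arrays, taken out again, the other 14 genes gave 0.22, 0.25 and 0.18. Female vehicle array 2 had 0.22, and the remaining arrays lay between -0.47 and -0.02. Only Sln of the 15 had the same 3 highest arrays as Myl4 and Myl7, which 0.182% of the tested probe sets had too. Sln, Nppa, Stard10, Mybphl and Fgf12, 5 of the 15, were highest on female verapamil array 3, as 13.2% of the tested probe sets were.

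Mybphl, an atrial relative of myosin binding protein, was too dim to be tested; it measured 455 on female verapamil array 3, 166 on female vehicle array 3 and 104 on male vehicle array 1, and at most 107 on the others. Stard10, a lipid transfer protein, measured 2124 and 1998 on female verapamil array 3 and male vehicle array 1, but 1242 on female vehicle array 3, within the range of 1146 to 1604 of the other 9. Nppa, which encodes atrial natriuretic peptide, was 23509 on female verapamil array 3, 23211 on male verapamil array 3 and 21248 on male vehicle array 3, and as low as 1423 on male verapamil array 1. Bmp10, a growth factor of the right atrium, lay between 5.09 and 59.9, and Gja5, a gap junction channel of the atria and conduction system, between 6.39 and 70.8, all below the filter's signal of 84.0.

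**Figure D3:**
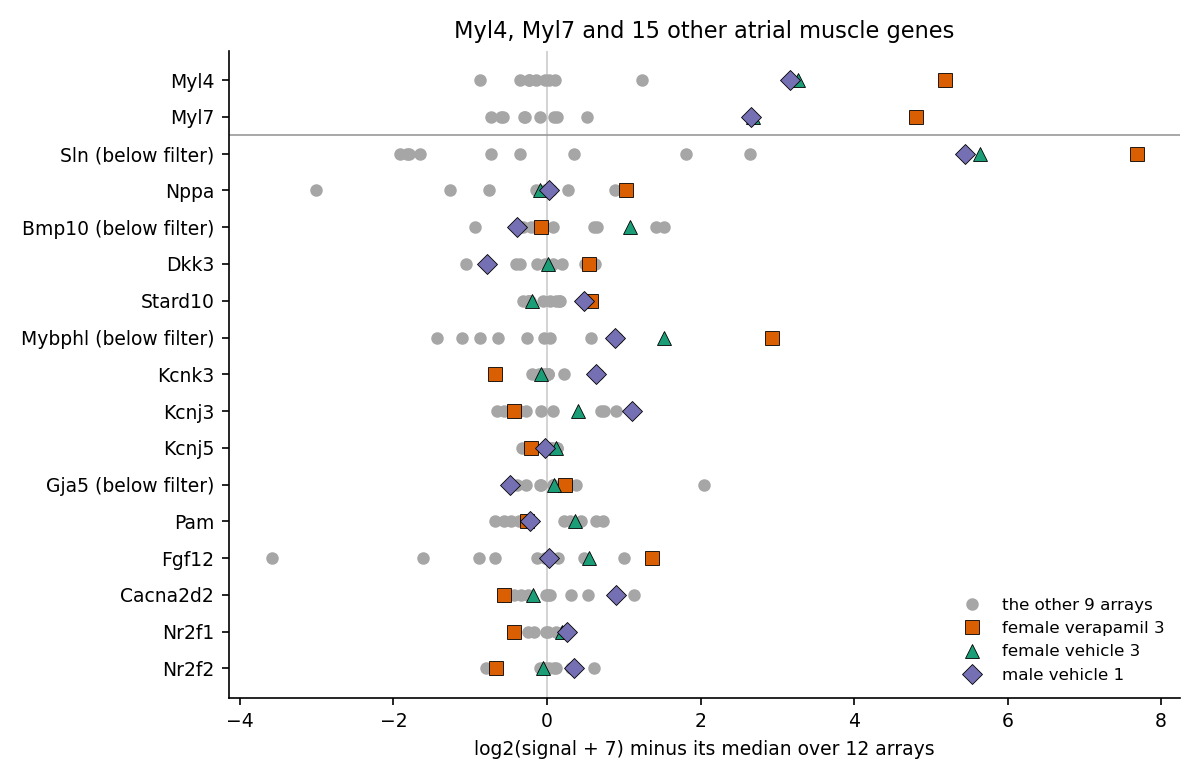
For Myl4, Myl7 (above the line) and 15 other genes of atrial muscle, log2(signal + 7) on each of 12 arrays minus the gene's median, with the 3 arrays of highest Myl4 and Myl7 in colour and the other 9 in grey. The coloured points lie far right for Myl4, Myl7 and Sln, partly so for Mybphl, and among the grey points for most of the others.

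The ventricular chains had no common direction on these arrays. In deposited signal, female verapamil array 3 had the highest Myl4, Myl7 and Sln. It also had the highest Myl2 and, by the brightest probe set, the highest Myl3 signal of all 12. On another Myl3 probe set male vehicle array 3 was the highest (40437, against 37759 on female verapamil array 3). Male vehicle array 1 lay between the other arrays of its group for Myl2 and above them for the brightest Myl3 probe set. On the other Myl3 probe sets it lay between them or below them. Female vehicle array 3 was the lowest of its group for both genes. Set against the median of the 100 brightest probe sets on the same array, the order turned: Myl2 and Myl3 on female verapamil array 3 (0.262 and 0.331) were the lowest of the 6 female arrays, and female vehicle array 3 (0.373 and 0.422) was the highest of its group. The 10 other ventricular genes listed, all tested, gave a mean deviation between -0.15 and 0.28 over the 12 arrays. The part of atrial tissue in the levels of Myl4 and Myl7 was not tested.

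The first comparison asked whether verapamil for 24 h changed the light chains in females. In the fit over all tested probe sets (limma, Benjamini-Hochberg adjustment) none of the 4 genes passed the threshold of 0.05, and neither did any other probe set (0 of 22518, 0.0%; 510 had an unadjusted p under 0.05). Verapamil minus vehicle was 0.05 for Myl2 (95% interval -0.20 to 0.30) and 0.05 for Myl3 (-0.20 to 0.30), so changes beyond about 0.30 log2 units lie outside the intervals of the ventricular pair. For the atrial pair the difference was 1.10 for Myl4 (SE 1.29, interval -1.67 to 3.88) and 1.13 for Myl7 (SE 1.19, interval -1.44 to 3.70), with adjusted p = 1 from limma for all 4 genes.

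The female difference in the atrial pair changed sign when 1 array was left out. Without female verapamil array 3 it was -0.46 for Myl4 and -0.43 for Myl7, and without female vehicle array 3 it was 2.25 and 2.20. Without all 3 high arrays it was 0.69 (SE 0.46) and 0.63 (SE 0.36). With the log2 signal of Sln as a covariate it was 0.38 (SE 0.41) and 0.49 (SE 0.49). No value was called, and the smaller SE follows from the way these arrays and Sln were chosen. Among the 20 lists, the mean deviation of 4 other cell types did not overlap between the female groups. Each had 0 genes past the test. How often such a gap between 3 and 3 arrays arises over all lists, or over all probe sets in females, was not counted. The gaps of list means given here, in either sex, are therefore only a description. The mean deviation of the 6 mesothelium genes, of the outer lining of the heart, ran from -0.89 to 0.15 in vehicle and from 0.31 to 0.89 in verapamil mice. That of the 2 tested fat genes ran from 0.34 to 0.94 and from 1.17 to 1.77, that of the 4 macrophage genes from -0.36 to -0.17 and from -0.07 to 0.24, and that of the 1 tested gene of the nerve list from -0.56 to -0.39 and from -0.34 to 0.69. Over all 5 measured fat genes the groups overlapped (-0.33 to 0.73 in vehicle and 0.60 to 1.59 in verapamil mice). In males the median difference was -0.31 for mesothelium, with 6 of 6 genes lower, and 1.27 for the fat genes. The mean deviation of the 3 endocardium genes, of the inner lining, was apart in the male groups by a narrow gap (-0.20 to -0.027 in vehicle and -0.014 to 0.13 in verapamil mice). That of the 6 working heart muscle genes ran from 0.04 to 0.17 and from -0.28 to -0.08. That of the 8 tested thin filament genes ran from 0.04 to 0.19 and from -0.18 to -0.15. Actc1, Tnnt2 and Tnni3 stand in both of these lists, so their gaps are not separate results. After quantile normalization, which leaves the brightest probe sets little room to differ, the male median difference of these lists was -0.02 and -0.04. The part of these cell types in the light chain values was not tested.

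In males the ventricular pair was lower after verapamil, without passing the test over all probe sets. The difference was -0.34 for Myl2 (SE 0.12, interval -0.59 to -0.08, unadjusted p = 0.0128 by limma, adjusted p = 1). It was -0.30 for Myl3 (SE 0.12, interval -0.56 to -0.05, unadjusted p = 0.0216 by limma, adjusted p = 1). The other Myl3 probe sets gave -0.40 and -0.29. In this comparison 612 probe sets, 2.72%, had an unadjusted p under 0.05 and 0 (0.0%) an adjusted one, and 921, 4.09%, were lower in verapamil with no overlap of the arrays, as Myl2 and Myl3 were. With array weights 1346 probe sets in males and 1437 in females had an unadjusted p under 0.05, and 0 an adjusted one. The interaction, the female minus the male effect, was 0.39 for Myl2 (interval 0.03 to 0.75, unadjusted p = 0.0354 by limma, adjusted p = 1) and 0.35 for Myl3 (unadjusted p = 0.0522 by limma, adjusted p = 1), where 443 probe sets, 1.97%, had an unadjusted p under 0.05 and 0.0% an adjusted one. A sex difference in the response of the ventricular pair is thus not established by the test.

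The lower male values were shared by the brightest probe sets as a class. Of the 100 probe sets of highest mean signal (27062 and above), all 100 were lower in male verapamil than in male vehicle mice, with a median of -0.26 (quartiles -0.31 and -0.22), and 67 did so with no overlap of the arrays. The median over all tested probe sets was 0.01. Myl2 stood at position 14 and Myl3 at position 30 from the lowest among the 100. The highest signal on an array was between 36216 and 45001 in male verapamil mice and between 43997 and 55448 in the other 3 groups. Quantile normalization gives all arrays the same distribution of signals. After it the male difference was -0.04 for Myl2 and -0.01 for Myl3, and the median of the 100 was 0.002. The female minus the male effect after this normalization was 0.05 for Myl2 and 0.01 for Myl3. The method replaces a signal by a value set by its rank on the array. Myl2 ranked between 3 and 11 and Myl3 between 2 and 6, so small differences were built in for them. The median of the 100 was likewise bound to be small. In females 20 of the 100 were lower, with a median of 0.05 in the deposited scaling, where Myl2 and Myl3 stood at positions 53 and 49.

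Set against the median of the 100 brightest probe sets on its own array, Myl2 was 0.340, 0.331 and 0.415 log2 units above it in male vehicle mice and 0.264, 0.244 and 0.291 in male verapamil mice. These groups did not overlap (difference -0.10, exact two-sided permutation p = 0.1, the smallest that 3 against 3 arrays allow). The share of other probe sets without overlap on this scale is not given here, so whether Myl2 stands out cannot be told. In females the difference on this scale was 0.0006 (exact permutation p = 1). For Myl3 it was -0.06 in males (exact permutation p = 0.2), with overlapping groups, and -0.003 in females (exact permutation p = 1).

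**Figure D4:**
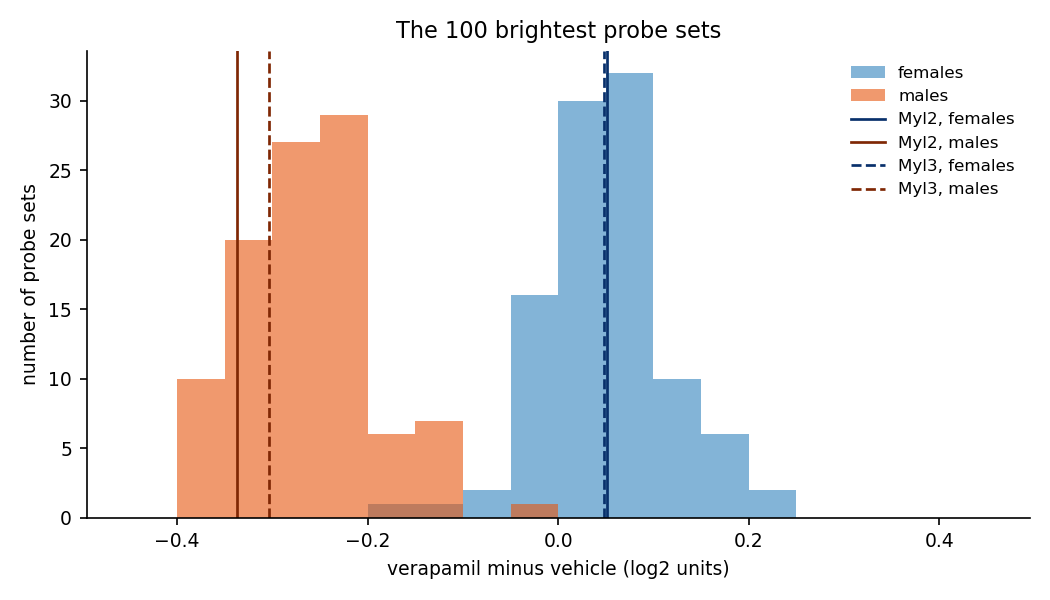
Number of the 100 brightest probe sets (vertical axis) by their difference between verapamil and vehicle in log2 units (horizontal axis), in females (blue) and males (orange), with lines for Myl2 (solid) and Myl3 (dashed). All 100 lie below 0 in males, with a median of -0.26, and both ventricular chains lie within that distribution.

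For the atrial pair in males the difference was -0.92 for Myl4 (SE 1.29, interval -3.69 to 1.85) and -0.94 for Myl7 (SE 1.19, interval -3.50 to 1.63), with adjusted p = 1 from limma. Without male vehicle array 1, the high array of its group, it was 0.26 for Myl4 and 0.02 for Myl7. None of the 3 male verapamil arrays was high, and their Myl7 signals of 287 to 468 lay within the 261 to 634 of the 6 arrays outside the 3 highest in the other groups. The female minus the male effect was 2.02 for Myl4 (SE 1.82) and 2.07 for Myl7 (SE 1.68), both with adjusted p = 1 from limma.

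Averaged over the sexes, where 0.0% of probe sets passed the test, verapamil minus vehicle was -0.14 for Myl2, -0.13 for Myl3, 0.09 for Myl4 and 0.10 for Myl7. After quantile normalization it was -0.017 for Myl2 and -0.0020 for Myl3. Between vehicle mice, males minus females differed by 0.09 for Myl2, 0.06 for Myl3, -0.16 for Myl4 and 0.19 for Myl7. None of these passed the test (adjusted p = 1, limma), in a comparison where 7 probe sets, 0.0311%, did.

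**Figure D5:**
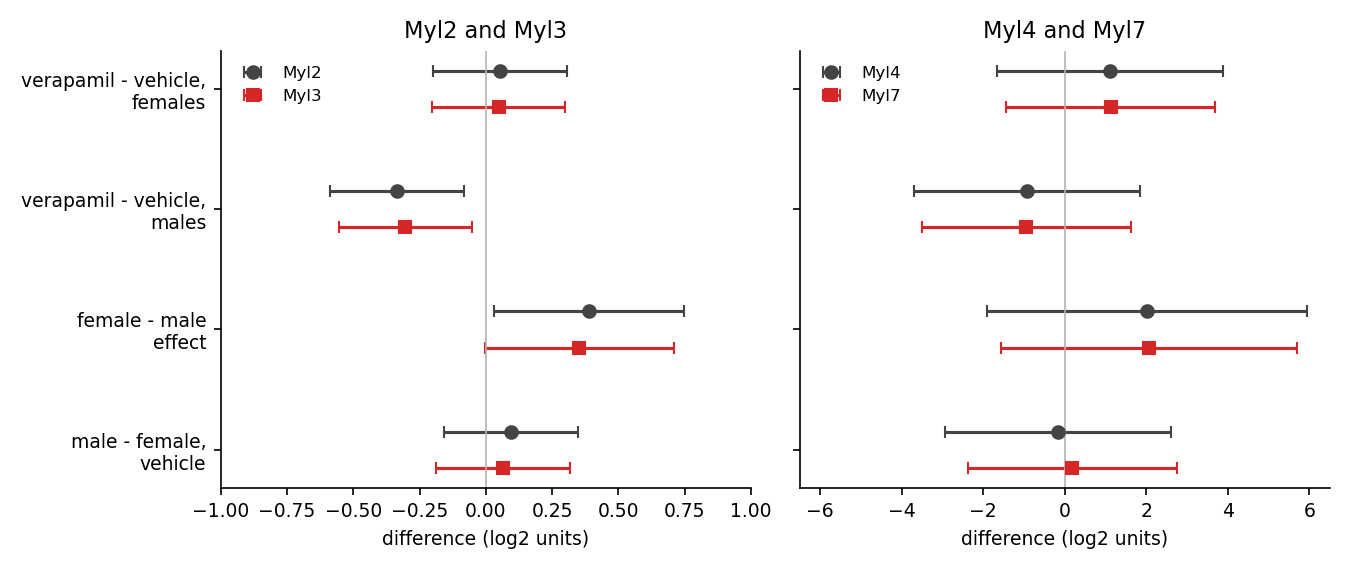
Difference in log2 units (point) and its 95% interval (bar) from limma for each light chain in 4 comparisons, with the ventricular chains on the left and the atrial chains on the right, on separate horizontal scales. The intervals of Myl4 and Myl7 all include 0 and are several times wider than those of Myl2 and Myl3, whose male difference lies below 0.

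Over all probe sets, leaving out the 3 high arrays moved the counts of the verapamil comparisons by less than 1.5 times. In females 0 were called with all arrays and 0 without the 3, and 510 against 627 had an unadjusted p under 0.05. In males 0 were called in either case, and 612 against 688 had an unadjusted p under 0.05. With Sln as a covariate these were 495 in females and 643 in males. In the comparison of male with female vehicle mice, 7 were called with all arrays and 8 without the 3, while those with an unadjusted p under 0.05 went from 558 to 1150. The median SE over all tested probe sets was 0.260 log2 units for the female difference with all arrays and 0.286 without the 3.

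Genes with a pattern like that of Myl7 were few. Over 12 arrays 1 of the 11501 other tested genes had r above 0.9, Myl4 at 0.964, and the r of the pair over the 9 arrays outside the 3 highest was 0.345. Next came Fam174a (0.894 over 12 arrays and 0.08 over 9), Fam210b (0.869 and 0.74) and Borcs7 (0.865 and -0.06). The others of the 12 most alike lay between 0.809 and 0.839. These values describe 12 libraries of which 3 set the order, and they carry no test. Sln, below the filter, had 0.897 and 0.23.

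Myl2 by contrast had 41 genes with r above 0.9, and 20 above 0.95. The most alike were Uqcrb (0.972), Fth1 (0.969), Cox6b1 (0.968), Atp5c1 (0.967), Tpt1 (0.966), Myl3 (0.966), Lpl (0.965) and Cox4i1 (0.965). Uqcrb, Cox6b1, Atp5c1 and Cox4i1 encode subunits of the respiratory chain and ATP synthase, Fth1 is the ferritin heavy chain and Lpl is lipoprotein lipase. All 8 kept r between 0.954 and 0.978 over the 9 arrays. Bright probe sets varied together from array to array, and why these genes were alike was not tested. The values are a description of 12 libraries.

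Other light chain genes, which serve smooth, skeletal and non-muscle myosin, were measured by 8 listed genes, of which 6 were tested. In females 0 of 6 passed the test, 5 were higher and 1 lower in verapamil, and their median was 0.12 against -0.02 over all tested genes. Myl1, the essential chain of fast skeletal muscle, had signals of 11518, 11738 and 7478 in female vehicle mice and 12796, 18646 and 18400.0 in female verapamil mice. The groups did not overlap, and the difference was 0.71 (SE 0.23, unadjusted p = 0.00786, adjusted p = 1 by limma). In this comparison 2.26% of the tested probe sets had an unadjusted p under 0.05 by limma, and the share without overlap was not counted. In males 0 of 6 passed, 4 were higher and 2 lower, the median was 0.14, and Myl1 differed by 0.12 (SE 0.23) with overlapping groups. Of 7 skeletal muscle markers, Myl1 and Mylpf among them, 4 were tested, and their mean deviation ran from -0.77 to -0.09 in female vehicle and from -0.55 to 0.28 in female verapamil mice, with 0 past the test. This mean includes Myl1 itself. The markers Tnnt3, Myh4 and Tnnc2 were below the filter, with highest signals of 66.8, 94.7 and 37.9. The part of skeletal muscle in the Myl1 values was not tested. The regulatory chains of non-muscle myosin, Myl12a and Myl12b, differed by 0.04 (SE 0.14, and -0.04 after quantile normalization) and 0.26 (SE 0.13) in females and by -0.23 (SE 0.14) and 0.16 (SE 0.13) in males.

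The enzymes that add phosphate to the regulatory chain, and the phosphatase that removes it, were 7 tested genes of 8 listed. In each sex 0 of 7 passed the test, with medians of -0.04 in females and 0.03 in males. Mylk3, the cardiac light chain kinase that acts on Myl2, differed by 0.29 (SE 0.16) in females and 0.16 (SE 0.16) in males. Ppp1r12b, a targeting subunit of the myosin phosphatase, differed by -0.26 (SE 0.22) and -0.05 (SE 0.22). The female value rests on female verapamil array 3, with a signal of 1633. The other female verapamil arrays had 3071 and 3092, within the 2710 to 3349 of female vehicle mice. A fit without female verapamil array 3 is not given for this gene.

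Among the thick filament partners, 9 of 11 listed genes were tested and 0 passed in either sex. In males 6 of 9 were lower, with a median of -0.32, which was -0.05 after quantile normalization. In females 8 of 9 were lower, with a median of -0.06, which was -0.10 after quantile normalization. Myh6, the alpha heavy chain to which the light chains bind in the adult mouse heart, differed by -0.32 (SE 0.12) in males and -0.01 (SE 0.12) in females. Myh7, the beta heavy chain, differed by 0.53 (SE 0.43) and -0.25 (SE 0.43). Mybpc3, cardiac myosin binding protein C, differed by -0.34 (SE 0.10) in males, or -0.14 after quantile normalization, and by -0.06 (SE 0.10) in females.

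The thin filament genes gave 8 tested of 9 listed and 0 past the test in either sex. In males all 8 were lower, with a median of -0.30, and -0.04 after quantile normalization. Tropomyosin Tpm1 differed by -0.37 (SE 0.11), and the troponins Tnnc1, Tnni3 and Tnnt2 by -0.32, -0.31 and -0.28. After quantile normalization these 4 stood at -0.09, -0.05, -0.02 and 0.03. In females 5 of 8 were higher, with a median of 0.03, which was -0.02 after quantile normalization.

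The factors that set chamber identity gave 19 tested genes of 20 listed, of which 0 passed in either sex, with medians of -0.06 in females and -0.02 in males. Nkx2-5, a core cardiac factor, differed by -0.25 (SE 0.17) in males. Hopx, a cofactor of serum response factor, differed by 0.41 (SE 0.27) in females. Its signal was highest of all arrays on female verapamil array 3 (25652) and lowest on female vehicle array 3 (10030). Both are arrays of high Myl4 and Myl7, and a fit without them is not given for Hopx. The ventricular markers without the members, 10 of 10 tested, had medians of 0.09 in females and 0.10 in males, with 0 past the test, and 0.03 and 0.14 after quantile normalization. The atrial list, 11 tested, had medians of 0.26 and -0.04, with 0 past the test, and 0.17 and -0.05 after quantile normalization.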

How the data were processed

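Left ventricular RNA was measured on Affymetrix mouse 430 V2 arrays, per the labels. The deposited values are linear signal intensities, 1 per probe set and array. From the values, the authors had scaled every array to a mean of 500.003 to 500.004 without the lowest and highest 2% of probe sets. All 12 arrays were used. How the signals were computed is not given in the sources used here. The number of arrays, 3 a group, limits the precision.

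Sex and treatment came from the labels, although the design text mentions female arrays only. The female vehicle array without a number was called 1. Nothing beyond the design text's mention of separate mice says how arrays relate, so p-values measure the spread between these samples.

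Values were taken as log2(signal + 7) with no further normalization. Of 45101 probe sets 64 controls were left out. Those with a mean above the median (6.51, a signal of 84.0) were tested, 22518 in all. Symbols came from the platform's annotation: 34958 probe sets carried 1 symbol, 932 several and 9211 none. The 4 members were found in RefSeq gene records (GRCm38.p6). For each gene the brightest of its probe sets was taken.

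The 4 group means were compared in limma 3.58.1 (R 4.3.3), two-sided, with 8 residual degrees of freedom, a variance trend on intensity, and p-values adjusted by Benjamini-Hochberg over the tested probe sets. The fit was tested on simulated data. Relations between members over 9 arrays were tested by permutation with scipy 1.17.1 (6 pairs with that of Myl2 and Myl3, whose test is not given). The named genes were the 4 members, up to 4 of smallest p in each of 20 lists, and the 12 genes most like Myl7 and 8 most like Myl2 by Pearson r. Sln, Nppa, Mybphl, Stard10, Bmp10, Gja5 and, where outside that rule, Myl1, Myh7, Myh6 and Mybpc3 were named after their values were seen. The members and lists were chosen with earlier results of these data known. Lists of other cell types without a statement in the text had 0 genes past the test.

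The alternatives were pseudocounts of 1 and 25, quantile normalization, no filter or the 75th percentile, no trend, array weights, 2 groups only, the mean of a gene's probe sets, a replicate block, the actin ratio or the atrial list as a covariate, and each array left out. Added after seeing the data were the fits without the 3 arrays of highest Myl4, Myl7 and Sln, without the 3 of highest actin ratio, and with Sln as a covariate.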

Additional observations from a re-analysis of the deposited data

How the results depend on the processing

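The 4 genes in 5 comparisons gave 528 values under 27 alternatives, 12 of which left out 1 array. None was called (lowest adjusted p = 0.599, limma), 483 kept their sign and 45 changed it. The male difference of Myl2 and Myl3 and their interaction kept their signs. Quantile normalization leaves such bright probe sets little room to differ. After it the male difference was -0.043 and -0.0076 and the interaction 0.052 and 0.011. Values below are log2 differences, and where no cause is given it was not tested.

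With array weights the female difference was -0.045 for Myl2, -0.051 for Myl3, -1.07 for Myl4 and -0.88 for Myl7. The difference averaged over the sexes was -0.60 for Myl4 and -0.77 for Myl7, the interaction -0.95 and -0.23, and the sex difference of Myl7 -0.74. Without the 3 arrays of highest Myl4, Myl7 and Sln the female difference was -0.076 for Myl2 and -0.090 for Myl3, the male difference 0.26 for Myl4 and 0.023 for Myl7, and the sex difference of Myl3 -0.032. With Sln as a covariate the male difference was 0.34 for Myl4 and 0.18 for Myl7, and the sex difference of Myl4 0.89. Without the 3 arrays of highest actin ratio the male difference was 0.26 for Myl4 and 0.023 for Myl7, and the sex difference of Myl7 -1.41. With the atrial list as a covariate the sex difference of Myl7 was -0.52, and that of Myl4 was 0.0018 when a gene's probe sets were averaged.

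With each array left out in turn, the female difference ran from -0.029 to 0.13 for Myl2, -0.029 to 0.15 for Myl3, -0.46 to 2.25 for Myl4 and -0.43 to 2.20 for Myl7. The male difference ran from -1.76 to 0.26 for Myl4 and -1.59 to 0.023 for Myl7. The average over the sexes ran from -0.69 to 0.68 for Myl4 and -0.68 to 0.63 for Myl7, and the sex difference from -1.35 to 0.99 and from -0.77 to 1.25.

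Counts of probe sets past the test stayed within 1.5 times in 127 of 132 cases. The others were 1 in females without the 3 arrays of highest actin ratio, 2 in males with only the 2 groups compared, 0 to 2 in males with each array left out (2 without male verapamil array 2), and, between vehicle mice, 0 with the 75th percentile filter and 4 with the mean of a gene's probe sets.

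For pairing, each probe set was taken as its deviation from its group mean. On this scale same-numbered arrays correlated at 0.119 to 0.318 in females and 0.078 to 0.149 in males. Arrays of unlike number correlated at -0.271 to 0.174 in females and -0.207 to 0.090 in males. In each sex 5 of 6 arrays were closest to their own number, and array 1 had the highest actin and GAPDH 3' to 5' ratios of every group. The number was still not taken to pair arrays, because no label says what a number marks, 1 female array has none, and male pair 2 reached only 0.078. Whatever same-numbered arrays share thus stays in the spread of the main fit. With the replicate block, which leaves 4 residual degrees of freedom, 0 probe sets were called in either sex and no call changed. The differences were those of the unblocked fit (1.13 for Myl7 in females), and 684 probe sets in females and 864 in males had an unadjusted p under 0.05. With 3 arrays a group the intervals of Myl4 and Myl7 span several log2 units, and the deposited signals carry no measure of background.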
